A study of Mus musculus with 12 samples.

Results

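The control cultures of the study were 6 poly(A) RNA libraries from wild-type mouse retinal cells labelled as primary Müller glia, 3 collected after 2 h and 3 after 6 h. The cells came from neural retina digested with papain, kept first without serum and then in medium with 10% fetal bovine serum, and both control groups had gone through 4 passages. In a transwell plate they shared medium with primary retinal pigment epithelium (RPE) cells given the solvent DMSO and no drug. The solvent concentration is not settled: the labels state 0.1% in the treatment text and 1% in the growth text. The other 6 libraries of the series, at the same times, faced RPE cells given 100 nM PNU-282987, a drug that activates the α7 nicotinic acetylcholine receptor. They entered here only in the scaling of the libraries and in the estimate of spread. Strain, age and sex of the animals are not stated in the labels. All genes with at least 1 CPM (counts scaled to the library total) in 3 or more of the 6 DMSO libraries were taken, which gave 12742 of the 49315 genes in the tables. Among them 11807 were protein-coding. At the edge of this rule, Gsta3 passed with a third-highest level of 1.002 CPM, and the complement gene C2 did not, with 0.997 CPM. At the level of 1 CPM, 6 of the 12742 genes were present only in libraries at 2 h and 18 only in libraries at 6 h.

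Müller glia are the radial glia that span the retina. They clear glutamate with the transporter Slc1a3 (GLAST), convert it to glutamine with Glul, recycle retinaldehyde bound to Rlbp1 and move water and potassium through Aqp4 and Kcnj10. Fibroblasts secrete collagen and fibronectin, and myofibroblasts carry stress fibres of smooth muscle actin as well. The comparison of 6 h with 2 h within the solvent controls asks which transcripts differ with time in the plate, without the drug.

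The DMSO libraries held 44332013 to 63943725 counts, so that 3 counts, taken as the floor of detection, corresponded to 0.0469 to 0.0677 CPM. This floor covers counting error only. The 3 libraries at 6 h were nearly alike: over the 12742 genes the root mean square distance of log2(CPM + 0.5) between them was 0.102 to 0.111, and the variation beyond sampling was a coefficient of variation of 0.0289 to 0.0319. They differed by more than sampling noise, with 2.22 to 2.85 for chi-square per degree of freedom, which does not show whether they were separate cultures. They entered the test as 3 because the labels number them so. DMSO 2 h replicates 1 and 2 lay 0.318 apart. DMSO 2 h replicate 3 stood apart from every other control library, at 0.605 and 0.665 from its own group and 0.565 to 0.568 from the libraries at 6 h. Each library at 2 h, replicate 3 included, lay nearer to the libraries at 6 h than to either library of its own time. The distances to 6 h were 0.285 to 0.303 for replicate 1 and 0.191 to 0.203 for replicate 2. The labels number the samples as biological replicates without saying whether they came from separate animals or cultures, and p-values therefore measure only the spread between these libraries.

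**Figure D1:**
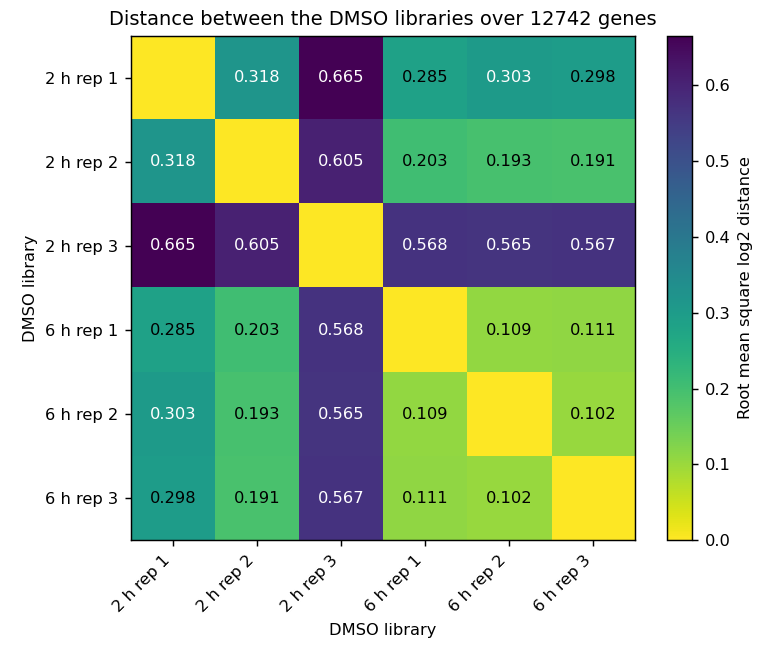
Root mean square distance of log2(CPM + 0.5) over 12742 genes between each pair of the 6 DMSO libraries, on both axes; darker cells are farther apart. The row of 2 h replicate 3 holds 0.565 to 0.665, while the 3 libraries at 6 h are 0.102 to 0.111 apart.

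Sex-linked and positional genes also set DMSO 2 h replicate 3 apart. Ddx3y, a Y-linked RNA helicase, stood at 5.00 CPM in that library and at 0.0338, 0.0386, 0.0451, 0.0378 and 0.141 CPM in DMSO 2 h replicates 1 and 2 and DMSO 6 h replicates 1, 2 and 3. Xist, the RNA that coats the inactive X chromosome, was 0.0469 CPM there, against 0.777 and 0.888 CPM in the other libraries at 2 h and 0.969 to 1.23 CPM at 6 h. Kdm5d, another Y-linked gene, was 1.59 CPM in replicate 3 and 0 in the other 5. Hox genes record the position of a cell along the body axis, and the eye develops in front of their domain. Hoxa3 was 12.9 to 26.3 CPM in all 6 libraries. Hoxc10, a gene of the posterior trunk, stood at 4.14 CPM in DMSO 2 h replicate 3 and at 0.0176 to 0.203 CPM elsewhere. Hoxc8 was 3.30 CPM in replicate 3 and at most 0.0579 CPM elsewhere. Hoxb6 was 1.88 CPM in replicate 3 and at most 0.176 CPM elsewhere. In these genes 1 of the 3 libraries at 2 h stood apart from the other 5 control libraries, and medians of the pathway lists without it are given beside those with it.

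Length-scaled abundance, the count divided by gene length and scaled to the same sum in every library (TPM), ranks transcripts by number and not by length. The first place in every library went to Gm23935, a 57-base feature annotated as a miRNA on chromosome 16 (GRCm38, 11144125 to 11144181, + strand), with 9.54% to 14.6% of all TPM. Gm24270, the third, is also 57 bases long (chromosome 9, 56223715 to 56223771, - strand), and Mir6236, the fourth, 123 bases. Together these 3 made up 11.9% to 16.4% of TPM but only 0.265% to 0.369% of counts, because division by so short a length raises few counts to a high value. The sequences of Gm23935 and Gm24270, from the GENCODE M21 transcripts of GRCm38, are shown because they are the same. Gm24187 (chromosome 13, 9834469 to 9834525, - strand) is a further copy with the change G11A against Gm23935, counted from 1 at the 5′ end and set in capitals.
Gm23935: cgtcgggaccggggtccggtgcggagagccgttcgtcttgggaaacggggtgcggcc
Gm24270: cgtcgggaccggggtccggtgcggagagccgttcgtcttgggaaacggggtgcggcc
Gm24187: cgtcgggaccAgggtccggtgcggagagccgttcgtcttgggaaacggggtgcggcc
Gm23935 and Gm24270 have identical letters, so only the bases around them can place a read at one rather than the other. The tables hold 1908 to 3131 CPM for the first and 211 to 243 CPM for the second. Gm24187, with its single substitution, held 50.9 to 81.5 CPM. The 57 bases are 73.7% G and C. The labels do not say how reads with several matches were counted, so the split between these copies and their rank are uncertain, and they are not read as miRNA levels. Gm42418, a noncoding locus on chromosome 17 known to hold ribosomal RNA sequence, ranked 12th with 5295 to 7902 TPM, the highest value being in DMSO 2 h replicate 3.

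The 16 protein-coding genes among the 20 most abundant served iron storage, translation, respiration, the cytoskeleton and the matrix. Fth1, the ferritin heavy chain, stood at 12309, 11829 and 7245 TPM in DMSO 2 h replicates 1, 2 and 3 and at 12695 to 12897 TPM at 6 h. Ftl1, the light chain, likewise stood lowest in DMSO 2 h replicate 3, at 3480 TPM against 5392 to 6664 TPM in the other 5. Translation was represented by the elongation factors Eef1a1 (7172 to 7870 TPM) and Eef2 (3497 to 4027 TPM), by Rplp1 (9376 to 10989 TPM) and by Rps12 (3320 to 4174 TPM). The 41 ribosomal protein genes of the list fixed for this group were all above 100 TPM and together took 5.08% to 5.54% of TPM. The respiratory chain genes mt-Co1 and mt-Cytb were lowest in DMSO 2 h replicate 1, at 5782 and 3884 TPM, against 7991 to 10742 and 5944 to 6861 TPM in the other 5 libraries.

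Cytoskeletal and matrix genes filled the remaining places. Actb, cytoplasmic β-actin, varied least among these 20 genes for its level, with 4597 to 4881 TPM. Myl6, a myosin light chain, stood at 3451 to 4791 TPM and Vim, the filament protein vimentin found in glia and in mesenchyme, at 3645 to 4152 TPM. Lgals1, a secreted galectin, stood at 8492 to 9626 TPM in 5 libraries and at 13060 TPM in DMSO 2 h replicate 3. Thbs1, thrombospondin 1, an adhesive matrix glycoprotein, stood at 5300 to 6159 TPM, Sparc, a collagen-binding matrix protein, at 3510 to 3880 TPM, and Igfbp7, a secreted binding protein of the IGF family, at 4745 to 6736 TPM. S100a4, a calcium-binding protein often used as a fibroblast marker, stood at 4335 to 4814 TPM. The next protein-coding genes in rank continued the same classes, among them Timp2, an inhibitor of matrix proteases (3483 ± 464 TPM, SD over the 6 libraries), Bgn, biglycan (2955 ± 344), Acta2, smooth muscle actin (2688 ± 333), Lox, the collagen cross-linking oxidase (2503 ± 221), and Col6a1 (2377 ± 387). The 20 genes held 22.8% to 26.5% of TPM, and 16 of them were among the first 20 in every library. Without division by length only 9 of the 20 stayed, and long matrix genes such as Col1a2 (7159 to 9627 CPM) and Fn1 (5116 to 6530 CPM) entered.

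**Figure D2:**
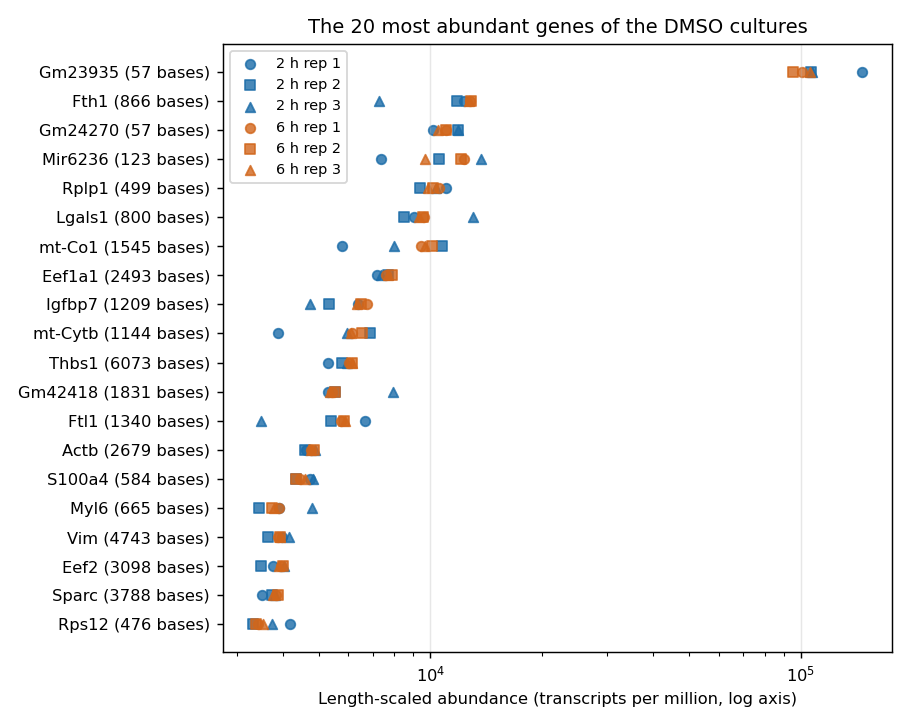
Length-scaled abundance (TPM, log axis) of the 20 most abundant genes, with gene length in brackets; each point is 1 library (blue 2 h, orange 6 h). Gm23935 lies at 95352 to 146364 TPM, and the blue triangle of 2 h replicate 3 is lowest for Fth1 and Ftl1 and highest for Lgals1.

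The labelled cell type was checked against marker lists. In the Müller glia list 10 of 22 genes met the 1 CPM rule and 8 had a mean of at least 10 TPM. The 3 highest were Vim (3912 TPM), Hes1, a Notch effector (72.0 TPM), and Sox9, a glial and chondrocyte transcription factor (66.2 TPM), followed by Glul (56.0 TPM). Clu, clusterin (27.4 TPM), Spc25, a kinetochore protein (19.0 TPM), Dkk3, a secreted Dickkopf-family protein (17.2 TPM), and Apoe, a lipid carrier (16.0 TPM), made up the 8. Other genes of glial function were lower: Slc1a3 had a mean of 0.521 TPM, Rlbp1 0.153 TPM, Gfap, the filament of reactive glia, 0.0648 TPM, and Kcnj10 0.0117 TPM. Aqp4 had counts in 1 library only, at 0.0189 CPM, and Dapl1 was at 0 in all 6, which allows up to the floor given above. The median of the list was 0.461 TPM.

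In the fibroblast list 17 of 21 genes met the rule, 15 had a mean of at least 10 TPM and 11 of at least 100 TPM. The highest were S100a4 (4541 TPM), Col6a1 (2377 TPM) and Col1a2 (1905 TPM), and the lowest Fap (0.169 TPM), Dpt (0.557 TPM) and Pi16 (0.632 TPM). All 14 genes of the myofibroblast list met the rule, with a median of 278 TPM. Its highest genes were Thbs1 (5894 TPM), Acta2 and Ccn2, a matricellular TEAD target (1711 TPM), and its lowest Lrrc15 (0.718 TPM), Cnn1 (20.1 TPM) and Cthrc1 (25.1 TPM). Both lists share Fn1 and Postn. The pericyte and smooth muscle list was split: Acta2 and Pdgfrb (609 TPM), the PDGF receptor of mesenchymal cells, were high, while the pericyte genes Rgs5 (0.0794 TPM), Kcnj8 (0.0357 TPM) and Abcc9 (0.00729 TPM) were near the floor.

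Genes of other retinal and ocular cell types mostly stood below the 1 CPM rule. RPE genes met the rule in 2 of 15 cases, Rdh5 (5.73 TPM) and Mitf (1.27 TPM). Rpe65, the visual-cycle isomerase, did not exceed 0.0313 CPM, and Rgr was at 0. Photoreceptor genes met it in 1 of 12 cases, Gnat2 (1.06 TPM), with Crx at 0. Of the retinal neuron list 4 of 14 met it, led by Prkca (35.8 TPM) and Tubb3 (27.3 TPM), while Gad1 was 0.00139 TPM. Gja1, a gap junction protein of astrocytes and many other cells, stood at 201 TPM, alone above 10 TPM in the astrocyte list. Endothelial and retinal progenitor genes met the rule in 0 of 9 and 0 of 12 cases, and Lin28a, a pluripotency and reprogramming factor, was at 0 in every library. Tmem119 stood at 409 TPM with the leukocyte genes Ptprc at 0.00696 TPM and P2ry12 at 0. Krt19 stood at 55.4 TPM in the epithelial list, where Cdh1 was 0.0327 TPM and Krt14 at 0.

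The lists with the most abundant genes were thus fibroblast and myofibroblast, and the Müller glia list was mixed. Slc1a3, Rlbp1, Aqp4, Kcnj10 and Gfap, which define Müller glia at rest or in gliosis, were under 1 TPM, against the label, while Glul, Sox9, Hes1, Clu, Dkk3 and Apoe were between 16.0 and 72.0 TPM. The cells are therefore called control cultures here, and no other cell type name is given to them. In bulk RNA fewer cells of a type and less RNA per cell cannot be told apart. The list counts did not hang on 1 library: with any single DMSO library left out, 10 Müller glia genes and 17 fibroblast genes still met the rule. DMSO 2 h replicate 3 differed within the lists, with Thy1, a fibroblast surface protein, at 21.9 CPM against 0.309 to 1.31 CPM elsewhere, Notch3, a pericyte receptor, at 43.3 CPM against 200 to 246 CPM, and Sox9 at 184 CPM against 75.02 to 89.6 CPM.

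**Figure D3:**
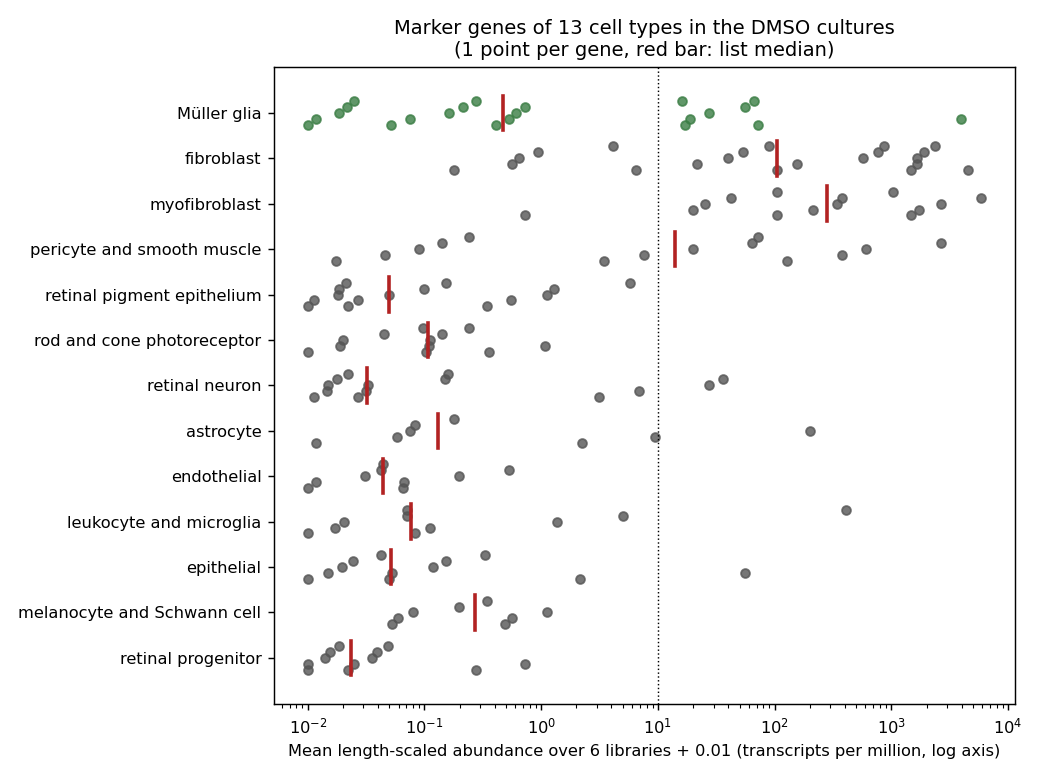
Mean TPM over the 6 DMSO libraries, plus 0.01, of each gene in 13 marker lists (log axis); green points are Müller glia genes, red bars list medians and the dotted line 10 TPM. The myofibroblast median lies at 278 TPM and the Müller glia median at 0.461 TPM.

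Between 2 h and 6 h no gene passed the test. edgeR's quasi-likelihood test with Benjamini-Hochberg adjustment called 0 of 12742 genes (0%), and its smallest adjusted p was 0.310. At an unadjusted p under 0.05 there were 274 genes higher at 6 h (2.15%) and 284 lower (2.23%). The 3 libraries at 6 h lay above all 3 at 2 h in 756 genes (5.93%) and below them in 476 (3.74%), and 6295 genes (49.4%) had a positive log2 difference. DESeq2 called 25 genes (0.196%), 19 higher and 6 lower, and limma-voom called 0, with 570 at an unadjusted p under 0.05. The median 95% confidence interval reached 0.31 to either side on the log2 scale, and in 11543 genes (90.6%) the interval excluded a 2-fold difference in both directions. These intervals take their spread from all 12 libraries and count the 3 nearly alike libraries at 6 h as 3. They would be too narrow if those were not separate cultures. The median log2 difference was -0.0022 and the quartiles were -0.11 and 0.10. For 10431 genes (81.9%) the mean at 6 h fell inside the range of the 3 libraries at 2 h. That range includes DMSO 2 h replicate 3, which stood apart, so this share says little about time. In 10277 genes (80.65%) the mean at 6 h lay nearer to the mean of DMSO 2 h replicates 1 and 2 than to replicate 3.

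The 10 genes of smallest p comprised 7 higher and 3 lower at 6 h, and in all of them the groups did not overlap. Stc1, a secreted glycoprotein hormone (ENSMUSG00000014813, chromosome 14, 69029289 to 69041401), stood at 1.89, 2.30 and 1.74 CPM at 2 h and 3.63, 4.31 and 4.14 CPM at 6 h, a log2 difference of 1.01 (95% interval 0.69 to 1.32; edgeR quasi-likelihood, Benjamini-Hochberg adjusted p = 0.310). Ric3, a chaperone of nicotinic receptors including α7 (ENSMUSG00000048330, chromosome 7, 109034312 to 109083331), stood at 0.777, 0.985 and 0.719 CPM at 2 h and 1.85, 1.59 and 2.08 CPM at 6 h, a difference of 1.13 (0.74 to 1.53). Ric3 was under 1 CPM in all 3 libraries at 2 h and met the rule only through those at 6 h, where it is high, so its separate groups follow in part from the rule. Gpr176, an orphan G protein-coupled receptor (ENSMUSG00000040133, chromosome 2, 118277110 to 118373419), had the deepest counts of the 10 and the narrowest interval. It stood at 81.0, 89.9 and 89.6 CPM at 2 h and 118, 119 and 114 CPM at 6 h, a difference of 0.40 (0.24 to 0.57).

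Among the others higher at 6 h, Pex11a, a protein of peroxisome division, stood at 6.69, 7.22 and 5.19 CPM and then 10.4, 10.2 and 10.3 CPM. Satb1, a chromatin organiser, stood at 1.503, 1.66 and 1.14 CPM and then 3.00, 3.23 and 3.66 CPM, and the alarmin Il33 at 0.524, 0.791 and 0.970 CPM and then 2.05, 1.47 and 2.10 CPM. Il33, like Ric3, met the 1 CPM rule only through the libraries at 6 h. Prss35 stood at 3.31 to 4.22 and then 6.79 to 7.52 CPM. Lower at 6 h was Lypd1, a Ly6-family protein that binds nicotinic receptors (ENSMUSG00000026344, chromosome 1, 125867622 to 125913101). It stood at 3.97, 3.05 and 5.32 CPM at 2 h and 1.74, 1.55 and 1.58 CPM at 6 h, a difference of -1.37 (-1.93 to -0.81). Olfm2, a secreted olfactomedin, stood at 5.46 to 7.05 and then 2.98 to 4.196 CPM, and Sema5b, a guidance protein, at 1.17 to 1.199 and then 0.643 to 0.722 CPM. Sema5b met the rule only through the libraries at 2 h, where it is high. By edgeR's quasi-likelihood test the Benjamini-Hochberg adjusted p of all 10 lay between 0.310 and 0.461.

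**Figure D4:**
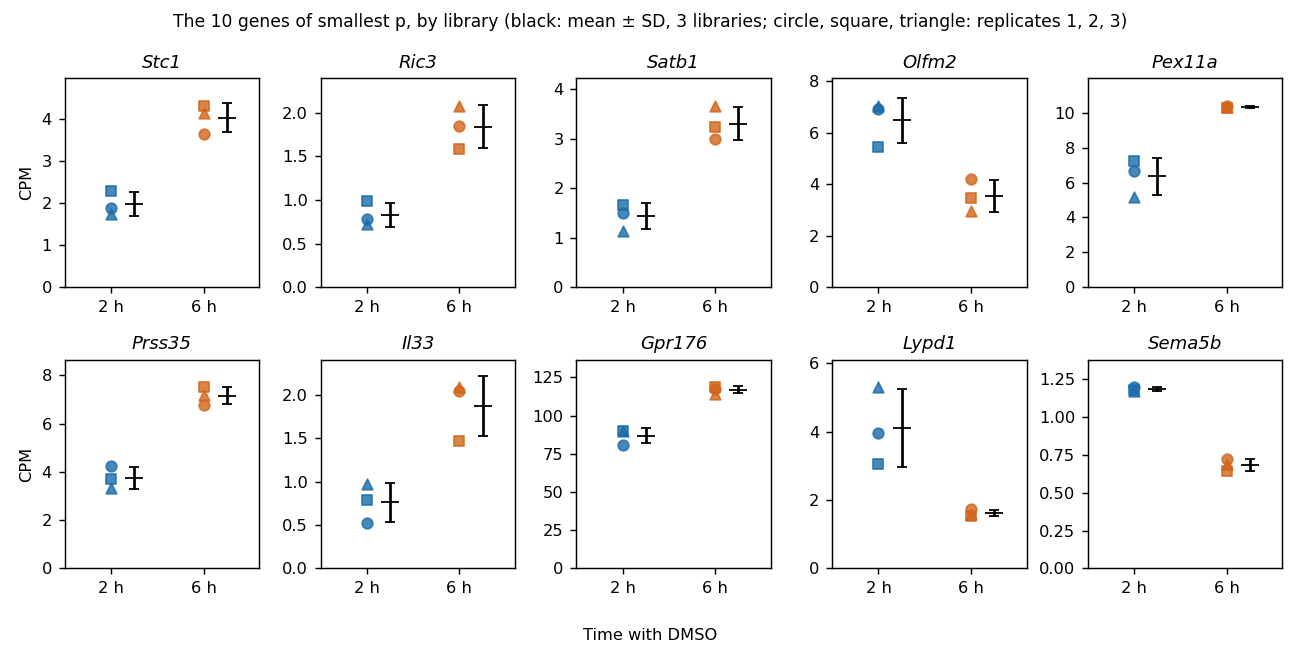
CPM of the 10 genes of smallest p by library at 2 h (blue) and 6 h (orange), linear axes from 0; black marks give the mean ± SD of 3 libraries. The groups do not overlap in any panel, though no gene passed the edgeR test.

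DESeq2's 25 genes included the first 9 of these 10. In all 25 the groups did not overlap, and the genes named next were chosen after their values were seen. Dcn, decorin, a collagen-binding proteoglycan, stood at 25.2, 33.9 and 18.8 CPM at 2 h and 52.1, 54.6 and 54.5 CPM at 6 h. Col12a1, a fibril-associated collagen, stood at 1129, 1238 and 1010 CPM and then 1516, 1546 and 1548 CPM. Both matrix genes had their lowest value in DMSO 2 h replicate 3. Tac1, the precursor of substance P, stood at 1.35, 1.47 and 0.938 CPM and then 5.14, 5.10 and 5.27 CPM, the largest difference of the 25 (log2 2.02, 95% interval 0.88 to 3.17). Dio2, the deiodinase that activates thyroid hormone, stood at 1.67 to 1.99 and then 4.48 to 5.02 CPM, and Atp2a3, a calcium pump of the endoplasmic reticulum, at 4.39 to 5.19 and then 9.47 to 10.7 CPM. Trem2, a myeloid lipid receptor, stood at 2.33 to 2.89 and then 5.63 to 6.41 CPM in cultures where the leukocyte gene Ptprc did not exceed 0.0965 CPM. Lgr4, a receptor for R-spondins, was among the 6 lower genes, at 35.4, 43.5 and 42.7 CPM and then 31.1, 30.9 and 31.0 CPM.

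Genes of cholesterol and fatty acid synthesis had negative differences throughout, and none passed the test. In this and the other lists, genes beyond the 3 of highest CPM were chosen after their values were seen. Of 24 cholesterol genes 0 passed the test and all 24 had a negative log2 difference, with a median of -0.35 beside -0.0022 over all genes. The groups did not overlap in 11 of them, all below, and 7 had an unadjusted p under 0.05, beside 3.74% below and 2.23% lower at that p over all genes. Sqle, squalene epoxidase, stood at 155, 163 and 181 CPM at 2 h and 120, 121 and 122 CPM at 6 h. Insig1, the sterol-sensing brake on this pathway, stood at 61.6, 66.5 and 120 CPM and then at most 54.0 CPM in all 3. Both are targets of the factor SREBP2, whose own gene Srebf2 overlapped between the times (192 to 240 and 194 to 196 CPM). Of 14 fatty acid genes 0 passed and all 14 were negative, with a median of -0.25, and 4 did not overlap, all below (3.74% of all genes). Fasn, fatty acid synthase, stood at 503, 419 and 584 CPM at 2 h and 400.1, 392 and 398 CPM at 6 h. Scd1, a desaturase, stood at 156, 189 and 202 CPM and then 133, 139 and 135 CPM. Without DMSO 2 h replicate 3 the medians were -0.28 and -0.16, with 24 of 24 and 12 of 14 genes negative. The summed level of the cholesterol genes was 1541, 1609 and 1756 CPM in DMSO 2 h replicates 1, 2 and 3 and 1297 to 1312 CPM at 6 h. By library totals alone 13 of the 14 fatty acid genes were negative.

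**Figure D5:**
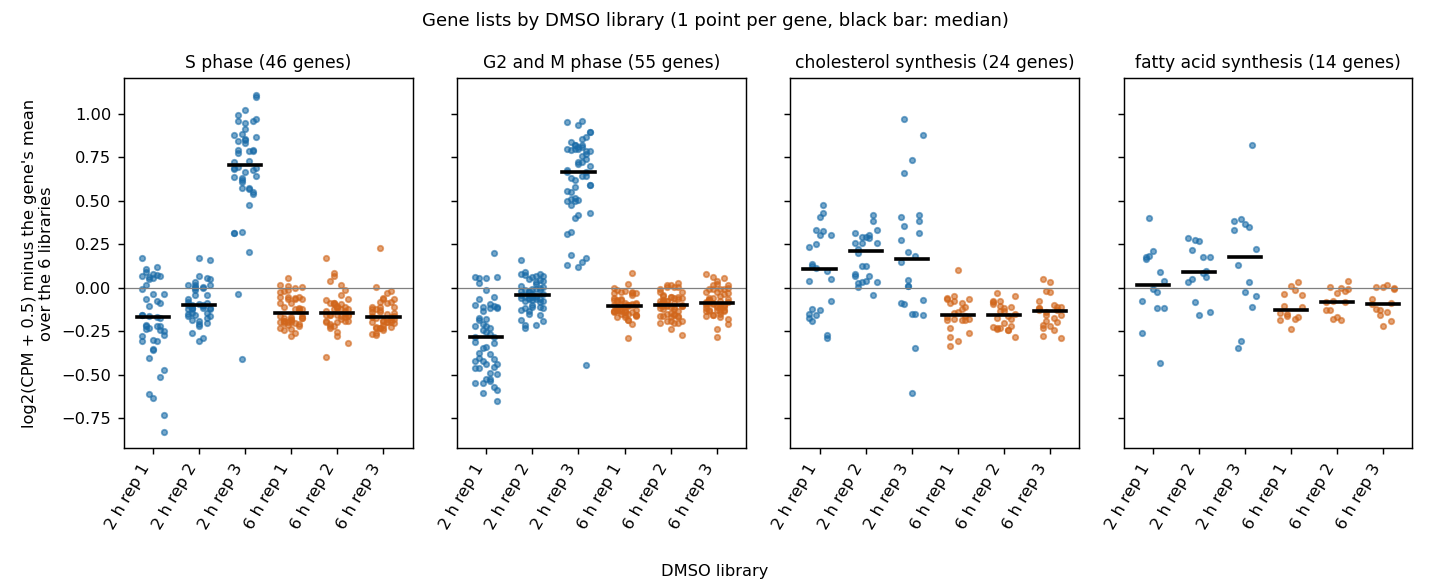
log2(CPM + 0.5) of each gene minus its mean over the 6 DMSO libraries, for 4 gene lists, by library (blue 2 h, orange 6 h; black bars are medians). The S phase and G2 and M phase genes stand high in 2 h replicate 3 alone, whereas the medians of the cholesterol and fatty acid genes are above 0 in all 3 libraries at 2 h and below 0 at 6 h.

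Cholinergic genes were few and mostly higher at 6 h. Of 7 that met the rule 0 passed, 6 were positive and the median was 0.58 (0.58 without DMSO 2 h replicate 3). In 4 the libraries at 6 h lay above those at 2 h and in 1 below, beside 5.93% and 3.74% of all genes. Of these 4, Ric3 met the rule only through 6 h and Chrna1 through 6 h with 1 library at 2 h, so these counts and the median are a description and not evidence of a direction. Beside Ric3, Slc5a7, the choline transporter, stood at 22.0, 34.3 and 26.9 CPM at 2 h and 41.1, 43.8 and 41.6 CPM at 6 h. Chrna1, the muscle-type α1 receptor subunit, stood at 0.895, 1.00 and 0.923 CPM and then 2.08, 2.00 and 1.97 CPM, and Chrnb2, a neuronal β subunit, at 1.38 to 1.57 and then 0.832 to 1.29 CPM. Chrna7, the α7 receptor subunit that PNU-282987 acts on, was under the rule, at 0.0676, 0.116 and 0.328 CPM at 2 h and 0.316, 0.340 and 0.458 CPM at 6 h. Its groups overlapped through DMSO 2 h replicate 3.

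Cell cycle genes had negative median differences that rested mostly on 1 library. Of 46 S phase genes 44 were negative with a median of -0.43, of 55 genes of G2 and M phase 54 with a median of -0.33, and 0 passed. The groups did not overlap in 4 and 3 of them, all below, beside 3.74% of all genes. By edgeR's quasi-likelihood test 10 and 2 were lower at an unadjusted p under 0.05, beside 2.23% of all genes. Rrm2, a subunit of ribonucleotide reductase, stood at 146, 165 and 254 CPM at 2 h and 145 to 146 CPM at 6 h. Mki67, the proliferation antigen Ki-67, stood at 60.6, 77.1 and 150.0 CPM at 2 h and 74.5, 79.3 and 83.3 CPM at 6 h. Only DMSO 2 h replicate 3 was high. Without it the medians were -0.02 and 0.05, with 29 of 46 and 19 of 55 genes negative. At an unadjusted p under 0.05 by the same test there were then 0 genes in either list.

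Immediate early genes and ERK feedback genes, which respond within minutes to hours of stimulation, showed the same dependence. Medians of -0.15 over 31 genes and -0.14 over 19 genes became 0.17 and 0.16 without DMSO 2 h replicate 3, with 25 of 31 and 17 of 19 then positive, and 0 passed in the main test. Fos, one partner in the AP-1 dimer, stood at 60.3, 58.5 and 30.2 CPM at 2 h and 60.0, 64.5 and 64.1 CPM at 6 h. Egr1, a zinc-finger factor, stood at 193 to 222 CPM at 2 h and 228 to 230 CPM at 6 h. Hbegf, a ligand of the EGF receptor, stood at 23.8, 21.1 and 148 CPM at 2 h and 24.5 to 24.8 CPM at 6 h. Klf4, a Krüppel-like factor, stood at 215, 197 and 358 CPM and then 178, 173 and 174 CPM, below in all 3. Over the 28 pathway lists 15 medians changed sign when this library was left out.

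Matrix lists held genes of both directions. Of 20 collagen genes 13 were positive, with a median of 0.10, or -0.02 without DMSO 2 h replicate 3. Col11a1, a minor fibrillar chain, stood at 36.2, 39.8 and 39.0 CPM at 2 h and 52.5, 54.8 and 52.8 CPM at 6 h. Col1a1, the main chain of collagen I, was the opposite, at 4470, 3792 and 4482 CPM and then 3536, 3509 and 3518 CPM, while Col1a2 overlapped. Among ribosomal protein genes 38 of 41 were negative, with a median of -0.09 (-0.08 without DMSO 2 h replicate 3; -0.07 by library totals alone) and 8 did not overlap, all below (3.74% of all genes). The 7 mitochondrially encoded genes that met the rule were all positive, with a median of 0.19 (0.24 without DMSO 2 h replicate 3) and overlapping groups in each. Their summed level with the rest of the list was 7353, 13343 and 10693 CPM at 2 h and 11907 to 12539 CPM at 6 h, so replicates 1 and 3 at 2 h were below every library at 6 h and replicate 2 above. mt-Nd1 stood at 769 CPM in DMSO 2 h replicate 1 and at 1228 to 1424 CPM in the other 5 libraries. Of 23 interferon response genes 15 were positive with a median of 0.17, or -0.04 without DMSO 2 h replicate 3, in which Ifit3, an antiviral gene, stood at 2.53 CPM against 12.0 to 13.8 CPM elsewhere.

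The number of called genes depended on which libraries entered the fit. By edgeR's quasi-likelihood test 558 genes had an unadjusted p under 0.05 in the main fit. Without DMSO 2 h replicates 1, 2 and 3 in turn there were 2069, 2211 and 771. Without DMSO 2 h replicate 3 the test called 4 genes, all higher at 6 h. They were Ptgs2, the inducible cyclooxygenase, Nr4a2, an orphan nuclear receptor, Cd24a, a surface glycoprotein, and Fam110c. Ptgs2 stood at 29.2 and 41.6 CPM in DMSO 2 h replicates 1 and 2, at 505 CPM in replicate 3 and at 87.0 to 94.3 CPM at 6 h, so that the excluded library lay on the far side of the libraries at 6 h. Nr4a2 stood at 9.46, 8.47 and 45.3 CPM and then 19.3 to 20.2 CPM. In a fit of the DMSO libraries alone, 0 genes were called with replicate 3 and 85 without it, 55 higher and 30 lower. Without DMSO 2 h replicate 3 and PNU 6 h replicate 1, 126 were called, 86 higher and 40 lower. That count does not rest on DMSO 2 h replicate 3 alone. In all, 53 genes were in both the set of 85 and the set of 126. The fits without replicate 3 set 2 libraries at 2 h against 3 nearly alike ones at 6 h. With near-identical libraries pooled as 1 sample each, the 3 libraries at 6 h became 1 sample, so that fit holds no spread at 6 h. Its median log2 difference over all genes was -0.0124, and 0.0052 with replicate 3 left out as well.

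Within the group at 2 h, replicate 3 differed from both other libraries by more than 2-fold in 863 genes, 364 above and 499 below, whereas replicates 1 and 2 differed from each other by that much in 56 and the mean at 6 h from the mean of replicates 1 and 2 in 36. The genes named here were chosen after their values were seen. Cxcl14, a chemokine, stood at 1.84 and 1.83 CPM in replicates 1 and 2 and at 170 CPM in replicate 3. Timp1, a protease inhibitor, stood at 182, 167 and 1259 CPM. Lpl, lipoprotein lipase, went the other way, at 306, 366 and 55.7 CPM, as did Selenop, a selenium carrier, at 146, 184 and 20.0 CPM. The cause of this spread within the group at 2 h was not tested.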

How the data were processed

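Poly(A) RNA of 12 samples was sequenced as paired reads of 150 bp. Per the labels' protocols, the authors used fastp 0.23.2 for trimming, STAR 2.5.2b for alignment to GRCm38 and featureCounts (Subread 1.5.2) for gene counts. DESeq2 stands in the submitters' processing notes without a stated use. The deposited values are raw counts per gene, with no normalization. The annotation release, the use of strand and the treatment of reads with several matches are not given in the sources used here, so overlapping genes and close copies are uncertain. Symbols came from GENCODE M21 for 48970 of 49315 identifiers.

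The test was edgeR 4.0.16 (R 4.3.3) with TMM scaling and a robust quasi-likelihood fit of 4 group means over all 12 libraries, with 8 residual degrees of freedom, a common biological coefficient of variation of 0.175 and the contrast DMSO 6 h minus DMSO 2 h. P-values were Benjamini-Hochberg adjusted over the 12742 genes, with a threshold of 0.05. Levels are CPM by library total, distances use a pseudocount of 0.5 CPM, and TPM were computed from the counts and the deposited gene length. The fit was tested on simulated data. In those data no library stood apart and none were nearly alike, so the simulation does not cover these 2 features of the control libraries. Alternatives were other scalings, DESeq2 1.42.0, limma 3.58.1 (voom), other filters, a replicate block, summed libraries and libraries left out. The genes and gene lists were chosen with earlier results of these data known. Named were the 10 genes of smallest p (as fewer than 5 passed), the 20 of highest mean TPM, the 3 highest genes of each pathway list, the 3 highest and 3 lowest of each marker list where room allowed, and a fixed set of glial, cell cycle and sex-linked genes. All others were chosen after their values were seen. Some genes these rules name are not reported here.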

Additional observations from a re-analysis of the deposited data

How the results depend on the processing

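Of 22 alternatives, 17 called 0 genes in both directions, among them RLE scaling, library totals, limma-voom, 3 other gene filters, the DMSO libraries alone and the replicate block. The fits with pooled libraries are in this count, but they held 1 sample at 6 h and so say little. DESeq2 called 19 genes higher and 6 lower. Added after seeing the data, the fit without DMSO 2 h replicate 3 and PNU 6 h replicate 1 called 86 higher and 40 lower. The DMSO libraries without DMSO 2 h replicate 3, also added then, gave 55 higher and 30 lower. With each DMSO library left out in turn, 0 to 4 genes were called higher and 0 lower: 4 without DMSO 2 h replicate 3, 1 without DMSO 2 h replicate 2 and 0 otherwise. The cause of these differences was not tested. For the 10 genes of smallest p, 214 values under alternatives held 0 reversals, with 21 past the threshold. These 10 were picked from the same libraries and their groups did not overlap. A reversal was therefore hardly possible, and its absence is no support for them. Of 112 list medians under 4 alternatives, 6 moved beyond the spread at 2 h. That spread includes DMSO 2 h replicate 3, so lists that this library sets apart could hardly count as moved. The S phase median went from -0.43 to -0.02 without it and was not among the 6. Without this library 15 of 28 medians changed sign. Ranking by CPM kept 9 of the 20 most abundant genes, protein-coding genes alone 16, genes of at least 300 bases 17, and leaving out 1 library 19 to 20.

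Deviations of same-numbered libraries from their group means correlated at 0.138, 0.0559 and -0.00681, beside -0.109 to 0.0613 for libraries of other numbers. The libraries at 6 h were nearly alike, so their deviations could hardly show a pairing. Whether the replicate numbers pair the libraries is therefore not settled. The replicate block gave 0 called genes and 557 with an unadjusted p under 0.05, beside 558 in the main design. Depth limits genes near 1 CPM, and with 3 libraries a side an exact permutation test of 1 gene cannot go below 0.1.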

Other observations

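Further gene lists had medians between the quartiles of all genes (-0.11 and 0.10) at 6 h against 2 h, and none of their genes passed the test. Heat shock genes had 18 of 22 negative with a median of -0.10 (0.08 without DMSO 2 h replicate 3), and genes of the unfolded protein and integrated stress responses 29 of 42 negative with a median of -0.05 (0.03 without it). Hypoxia and glycolysis genes had 21 of 38 positive with a median of 0.04 (0.08 without it). Bnip3, a mitophagy receptor induced by hypoxia, stood at 14.5, 20.7 and 13.8 CPM at 2 h and 22.2, 24.3 and 23.1 CPM at 6 h. Of 18 insulin and IGF genes 14 were positive, with a median of 0.07 (0.05 without it), and 2 binding proteins went opposite ways. Igfbp5 stood at 4.80, 5.52 and 13.8 CPM and then 17.8, 17.8 and 18.3 CPM, above in every library. Igfbp2 stood at 7.31, 5.08 and 30.6 CPM and then 3.25, 2.72 and 3.47 CPM, below in every library. Circadian clock genes had 13 of 19 negative with a median of -0.07, which turned to 0.07 without DMSO 2 h replicate 3, with 10 of 19 positive. Npas2, a partner of Bmal1, stood at 1.503, 1.12 and 0.719 CPM and then 1.74, 2.21 and 1.62 CPM. Bnip3, Igfbp5 and Npas2 were chosen after their values were seen, as was Igfbp2.

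In the TGF-beta, activin and BMP list 21 of 38 genes were negative with a median of -0.07, which turned to 0.05 without DMSO 2 h replicate 3, with 22 of 38 positive. Fst, follistatin, an activin inhibitor, stood at 29.4, 32.2 and 36.4 CPM at 2 h and 42.2, 41.1 and 41.0 CPM at 6 h. Contractile and cytoskeletal genes had 15 of 23 negative with a median of -0.05 (-0.02 without it). Among them Actg2, a smooth muscle actin, stood at 32.6, 34.6 and 49.6 CPM and then 22.9 to 23.0 CPM, below in every library. Fst and Actg2 were chosen after their values were seen.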
